A study of Mus musculus with 15 samples.

Results

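Mouse myotubes given any 1 of 4 isoforms of the coactivator PGC-1a were compared, as the mean of the 4 isoforms, with myotubes given GFP. The comparison used all 15 arrays of the series: the 12 isoform arrays, 3 each for PGC-1a1, for PGC-1a2, for PGC-1a3 and for PGC-1a4, against the 3 arrays titled GFP. The cells were primary mouse myoblasts grown to near confluence and differentiated for 48 h into myotubes, the multinucleate precursors of muscle fibres. Adenovirus was then added (multiplicity of infection 100) and replaced by fresh medium 12 h later, and cells were harvested roughly 60 h after transduction. The GFP control received a virus that expresses GFP only, and each isoform virus expresses the same GFP beside the isoform from a promoter of its own. All 5 groups therefore carry adenovirus and GFP, and untransduced cells are not analysed here. The source name of the PGC-1a4 arrays reads isoform 1, against their titles, and the titles were followed. The labels give no strain and do not say whether replicates are separate cultures, so p-values measure the spread between these arrays, which may be technical.

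PGC-1a, encoded by Ppargc1a, does not bind DNA itself. It is recruited by transcription factors such as the estrogen-related receptors, PPARs and NRF1, and brings in the machinery that opens chromatin and starts transcription. In muscle it is best known for raising mitochondrial content and fatty acid oxidation after exercise. Its isoforms arise from different promoters and splice sites: PGC-1a1 is the full-length protein, the other isoforms are shorter, and PGC-1a4 has been linked to muscle growth. What the isoforms change in common is the question here, and a change was taken as common when the mean of the 4 isoforms differed from GFP and each isoform's own mean lay on the same side of GFP.

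The values are log2 signals for 23332 transcript clusters, each summarising a group of array probes for a transcribed locus. Array medians lay between 5.476 and 5.659 log2. All 10 skeletal muscle markers, among them Acta1, Ckm and Des, lay above the upper quartile of every array. So did 5 of 7 myoblast and satellite cell markers (Myf5, Myod1, Sdc4, Cdh15 and Itga7) and the smooth muscle marker Acta2. Of the 6 endothelial, 6 adipocyte and 5 measured macrophage markers none did. One control array, GFP replicate 2, was unlike its group: its correlation with the other GFP arrays across clusters was 0.982 and 0.983, against 0.991 between the other two, and it scored 40.9 on the second principal component where they scored -14.3 and -7.0. Since the 3 GFP arrays serve all 4 isoforms, each of them carries much weight in this comparison, and results are given with and without GFP replicate 2. The median SD within a group was 0.176 log2 in GFP and 0.113 to 0.137 in the isoform groups.

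Genes for fat import into mitochondria (Cpt1a, 1.73-fold) and for the myosin that carries mitochondria (Myo19, 1.55-fold) were higher with every isoform than with GFP. Genes for the Z-disc protein Csrp3 (1.69-fold) and the myosin chaperone Unc45b (1.65-fold) were lower. In the fit over all arrays, the mean of the 4 isoforms differed from GFP in 785 clusters, which is 3.36% of all (limma, adjusted p under 0.05), with 462 higher (1.98%) and 323 lower (1.38%). Of these, 502 (2.15% of all clusters) had all 4 isoform means on the same side of GFP, 271 higher (1.16%) and 231 lower (0.99%). Because the 4 differences share the same GFP arrays, sides agree often without any call: all 4 lay on 1 side of GFP in 31.2% of all clusters. A further 283 clusters, 191 higher and 92 lower, passed in the mean while at least 1 isoform lay on the other side. In 203 of the 502, 100 higher and 103 lower, the 12 isoform arrays and the 3 GFP arrays did not overlap at all. Over all clusters such separation occurred in 1.23%. The median difference from GFP was 0.33 log2 for the clusters that rose in common and -0.38 for those that fell. The mean change reached 2-fold in 4 that rose and 5 that fell. Of the 502 clusters, 423 carried exactly 1 gene symbol, 237 higher and 186 lower. The unnamed or multiply named remainder held 34 that rose and 45 that fell.

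The call refers to the mean of these 4 isoforms and to the spread between arrays of the same group. When the 12 isoform arrays were treated as a single group, so that differences between isoforms entered the error, 4 clusters passed. Without GFP replicate 2, 545 clusters passed (2.34%), 234 higher and 311 lower, 379 of them in common, and 247 of the 502 were called in common again. Without GFP replicate 3, 290 passed, 195 of them in common, and without GFP replicate 1, 434 passed, 319 of them in common. With a weight for each group's own spread, 271 passed, 180 of them in common. After median centring of the arrays, 74.2% of the calls were higher against 58.9% as reported, and the median difference over all clusters moved from -0.019 to 0.023 log2.

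The introduced gene was among the common changes. Ppargc1a had signals of 8.88, 8.12 and 8.58 log2 on the GFP arrays, while the 12 isoform arrays ran from 8.80 through a median of 9.74 to 12.67. The lowest isoform arrays overlapped with GFP replicate 1. The mean of the isoforms was 1.70 ± 0.12 log2 above GFP (± SE of the fit, with n = 3 arrays in each group, here and below), adjusted p = 3.8e-05, with 4.08 in PGC-1a1, 1.93 in PGC-1a4, 0.42 in PGC-1a3 and 0.35 in PGC-1a2. Taken alone, PGC-1a3 and PGC-1a2 did not pass against GFP in the same limma fit (adjusted p = 0.14 and 0.22). Without GFP replicate 2 the mean difference was 1.49. Probe positions along the gene were not used here, so these values do not rank the amounts of the isoforms.

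Of the 92 genes named here, 4 kept their call under every alternative setting that tested the mean of all 4 isoforms, the single-group fit included. The margin was narrow: in the single-group limma fit all 4 had adjusted p = 0.048. Csrp2, Frmd5, Gprc5a, Grb10 and Pmm2 had adjusted p = 0.074 in that fit and kept their calls under the other settings. The 4 genes retained were of mixed kinds. These 4 were Csrp3, Unc45b and Ankrd23, which fell and encode proteins of the muscle contractile apparatus, and Myo19, which rose and encodes a myosin that moves mitochondria. Csrp3, the muscle LIM protein of the Z-disc, had signals of 9.54, 9.52 and 9.61 log2 on the GFP arrays and 8.55, 8.78 and 9.09 as the lowest, median and highest isoform array. No isoform array reached the lowest GFP array, but the 40 leading genes, these 4 among them, were chosen for such separation. The difference was -0.76 ± 0.06 log2 (adjusted p = 5.1e-05), with -0.67 in PGC-1a1, -0.92 in PGC-1a2, -0.91 in PGC-1a3 and -0.54 in PGC-1a4. Unc45b, a chaperone that folds myosin, lay at 9.78, 9.67 and 9.78 in GFP and at 8.79, 8.95 and 9.30 (lowest, median, highest) in the isoforms. It fell by 0.72 ± 0.06 log2 (adjusted p = 4.5e-05), and PGC-1a4 was again the isoform nearest to GFP at -0.47. Ankrd23, a muscle ankyrin repeat protein that binds titin, was the most even of the group: its 3 GFP arrays lay at 9.62, 9.60 and 9.59 and the isoform arrays between 9.01 and 9.33 with a median of 9.12. Its difference was -0.47 ± 0.06 log2 (adjusted p = 0.0016), with the 4 isoforms between -0.52 and -0.39. Myo19 lay at 7.24, 7.13 and 7.26 log2 in GFP and at 7.54, 7.88 and 8.08 (lowest, median, highest) in the isoforms, all above GFP. It rose by 0.63 ± 0.06 log2 (adjusted p = 0.00013). Without GFP replicate 2 the differences of Csrp3, Unc45b, Ankrd23 and Myo19 were -0.78, -0.76, -0.47 and 0.59. In bulk RNA, fewer cells of a type and less RNA per cell cannot be told apart. The summed linear signal of the 10 muscle markers, of which 4 fell in the mean contrast, was 24290 to 25411 on the GFP arrays. It was lower than on any GFP array in PGC-1a1 (22198 to 22483), PGC-1a2 (22600 to 23877) and PGC-1a3 (22458 to 22653), and overlapped with GFP in PGC-1a4 (23377 to 24656). The part of this sum in the falls of Csrp3, Unc45b and Ankrd23 was not tested.

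**Figure D1:**
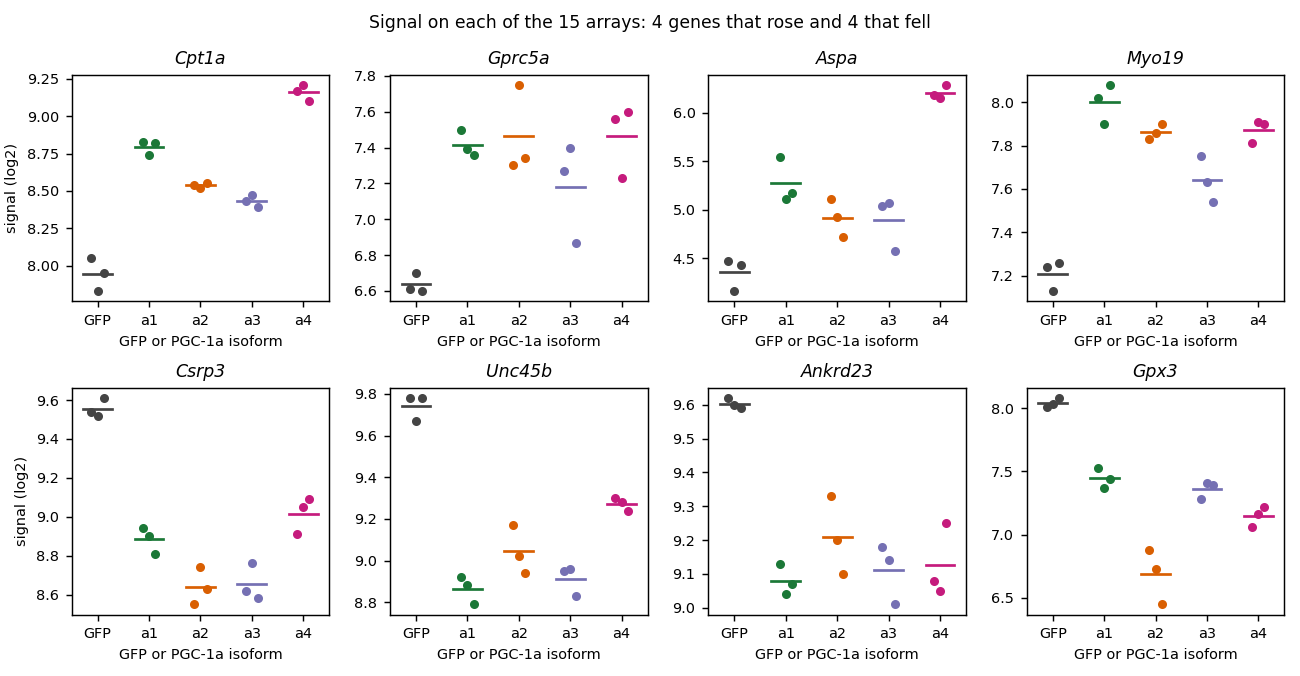
Log2 signal on each of the 15 arrays for 4 genes that rose (Cpt1a, Gprc5a, Aspa, Myo19) and 4 that fell (Csrp3, Unc45b, Ankrd23, Gpx3) in all isoforms. Points are single arrays, bars are group means (n = 3), a1 to a4 are the PGC-1a isoforms and each panel has its own axis. In each panel no isoform array overlaps with a GFP array, which was a condition for choosing these genes.

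The promoters of these 4 genes are shown because their calls in the mean contrast held under each setting that tested it. Their isoform nearest to GFP still differed in size, and only in Csrp3 was it over 0.5 log2 from GFP. Each line runs 5′ to 3′ from 250 bases before to 50 bases after an annotated start in RefSeq (GRCm38.p6). Ankrd23 and Csrp3 have 2 starts each. Capitals mark matches on either strand to the searched letters: CAGCTG (E-box), TGANTCA (AP-1 site), TGACGTCA (cyclic AMP response element), AAGGTCA (estrogen-related receptor element), TGATGNAA (amino acid response element), GCATGCGC (NRF1 core), TATAAA (core promoter box) and CATTCC (MCAT element, bound by TEAD factors in muscle).
Ankrd23 (upstream start), chr1:36536507-36536806, minus strand: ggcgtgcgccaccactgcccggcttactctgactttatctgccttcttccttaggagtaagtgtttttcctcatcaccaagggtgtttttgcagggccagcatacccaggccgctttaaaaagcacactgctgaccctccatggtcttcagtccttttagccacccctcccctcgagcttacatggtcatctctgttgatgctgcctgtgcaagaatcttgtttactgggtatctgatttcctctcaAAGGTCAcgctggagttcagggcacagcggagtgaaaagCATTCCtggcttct
Ankrd23 (downstream start), chr1:36535690-36535989, minus strand: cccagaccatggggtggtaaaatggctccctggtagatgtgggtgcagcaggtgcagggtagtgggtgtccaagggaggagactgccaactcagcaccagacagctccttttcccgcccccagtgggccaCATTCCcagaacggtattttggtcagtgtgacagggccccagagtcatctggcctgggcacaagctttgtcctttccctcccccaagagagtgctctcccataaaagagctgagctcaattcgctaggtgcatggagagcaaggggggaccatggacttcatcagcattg
Csrp3 (upstream start), chr7:48848002-48848301, minus strand: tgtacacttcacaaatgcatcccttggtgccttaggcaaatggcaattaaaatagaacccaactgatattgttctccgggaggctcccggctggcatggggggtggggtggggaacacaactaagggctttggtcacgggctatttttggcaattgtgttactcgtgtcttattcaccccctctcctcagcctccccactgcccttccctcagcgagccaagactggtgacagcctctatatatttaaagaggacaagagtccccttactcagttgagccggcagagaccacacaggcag
Csrp3 (downstream start), chr7:48843622-48843921, minus strand: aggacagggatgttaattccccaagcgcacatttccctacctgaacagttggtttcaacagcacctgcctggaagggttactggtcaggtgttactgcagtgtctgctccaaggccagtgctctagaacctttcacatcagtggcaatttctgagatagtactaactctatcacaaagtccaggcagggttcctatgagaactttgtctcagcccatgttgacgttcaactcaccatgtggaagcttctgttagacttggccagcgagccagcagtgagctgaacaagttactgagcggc
Myo19, chr11:84879920-84880219, plus strand: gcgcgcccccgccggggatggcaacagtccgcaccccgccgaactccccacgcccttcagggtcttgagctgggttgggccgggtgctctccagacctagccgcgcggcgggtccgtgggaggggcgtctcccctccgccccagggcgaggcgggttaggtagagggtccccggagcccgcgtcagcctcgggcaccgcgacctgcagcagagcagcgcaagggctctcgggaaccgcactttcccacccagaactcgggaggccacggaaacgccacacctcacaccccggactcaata
Unc45b, chr11:82911003-82911302, plus strand: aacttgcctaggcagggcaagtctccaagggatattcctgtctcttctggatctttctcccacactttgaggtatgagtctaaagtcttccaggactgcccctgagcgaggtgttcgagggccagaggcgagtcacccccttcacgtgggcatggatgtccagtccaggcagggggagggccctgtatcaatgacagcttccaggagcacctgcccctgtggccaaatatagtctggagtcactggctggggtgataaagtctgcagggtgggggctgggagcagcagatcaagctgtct

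Only Ankrd23 held any of these letters among the 4 genes: AAGGTCA across the upstream start, and CATTCC in both windows. Over all genes of the arrays with a promoter in the table (11894 of 14860), 4.19% had AAGGTCA in at least 1 promoter and 15.3% had CATTCC. Of the 200 genes with a promoter among those that rose in common, 2.0% had AAGGTCA and 7.5% the NRF1 core, against 4.6% of all genes for the latter. Of the 149 that fell in common, 26.8% had CAGCTG against 18.5% of all genes and 17.0% of those that rose, 20.1% had TATAAA against 13.2% of all, and 1.34% had the NRF1 core. A gene with several promoters has more room for a match. Counted per promoter, CAGCTG was in 22.3% for genes that fell, 16.5% for those that rose and 16.1% over all. All genes here include those of dim clusters. These shares are descriptions of the windows, matches of different motifs may overlap, and no match says only that the letters are absent from the window.

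The leading genes that rose in every isoform are described by role, sorted after their values were seen, beginning with enzymes of metabolism. Leading genes, rises and falls, were chosen among those without overlap between isoform and GFP arrays, so lack of overlap is no further result for them. Cpt1a, the carnitine transferase that admits long-chain fatty acids to mitochondria, had signals of 8.05, 7.83 and 7.95 log2 in GFP and 8.39, 8.65 and 9.21 (lowest, median, highest) in the isoforms, with no overlap. It rose by 0.79 ± 0.05 log2 (adjusted p = 2.8e-05), or 1.73-fold, from 0.49 in PGC-1a3 to 1.22 in PGC-1a4. Aspa, which splits N-acetylaspartate to acetate and aspartate, lay at 4.47, 4.16 and 4.43 in GFP and at 4.57, 5.11 and 6.29 in the isoforms. It rose by 0.97 ± 0.12 log2, and the PGC-1a4 difference of 1.86 was over the others, which ran from 0.54 to 0.93. Alas1, the first enzyme of heme synthesis, rose by 0.57 ± 0.05 log2 (adjusted p = 1e-04), with 0.93 in PGC-1a1, 0.78 in PGC-1a4, 0.29 in PGC-1a2 and 0.27 in PGC-1a3. Pmm2, which makes mannose-1-phosphate for protein glycosylation, rose by 0.61 ± 0.08, and B4galt5, which makes lactosylceramide, by 0.48 ± 0.05. The B4galt5 difference was 1.13 in PGC-1a4 but 0.11 in PGC-1a2, which did not pass alone in the limma fit (adjusted p = 0.37). Prpsap1, which associates with the enzyme that makes the nucleotide precursor PRPP, rose by 0.37 ± 0.05 and differed little between isoforms, from 0.31 to 0.43.

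Other leading rises encode surface and signalling proteins. Gprc5a, an orphan receptor induced by retinoic acid, lay at 6.61, 6.70 and 6.60 log2 in GFP and at 6.87, 7.37 and 7.75 in the isoforms. All isoform arrays were above GFP, and it rose by 0.74 ± 0.12 (adjusted p = 0.0058), with isoform differences of 0.54 to 0.83. Gas6, the ligand of the TAM receptor kinases, rose by 0.79 ± 0.07 log2 (adjusted p = 6.3e-05), most in PGC-1a1 (1.09) and least in PGC-1a4 (0.35). Adgre5, the adhesion receptor also called CD97, rose by 0.67 ± 0.05 (adjusted p = 3.2e-05), from 0.44 in PGC-1a2 to 0.97 in PGC-1a4. Mknk1, the kinase of the translation factor eIF4E, rose by 0.40 ± 0.08, Ndrg3 of the NDRG family by 0.53 ± 0.08, and Kctd1, a BTB domain protein, by 0.42 ± 0.06. Ndrg3 was 0.83 in PGC-1a4 but 0.25 in PGC-1a3, which did not pass alone in the limma fit (adjusted p = 0.14). Serpinb8, a serine protease inhibitor, rose by 0.50 ± 0.10, a call lost without GFP replicate 1, 2 or 3 (adjusted p = 0.052, 0.087 and 0.065).

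The remaining leading rises encode proteins of RNA handling, protein turnover and the cytoskeleton. Sars2, the seryl-tRNA synthetase of mitochondria, rose by 0.46 ± 0.06 log2, most in PGC-1a3 (0.72). Ncbp2, a subunit of the nuclear cap-binding complex, rose by 0.41 ± 0.07, also most in PGC-1a3 (0.68). Csrp2, a LIM protein related to Csrp3, had signals of 5.99, 6.03 and 5.88 in GFP and 6.27, 6.43 and 6.61 in the isoforms. It rose by 0.47 ± 0.07 (adjusted p = 0.0029) with isoform differences of only 0.39 to 0.54, so the related genes Csrp2 and Csrp3 moved in opposite directions in every isoform. Usp25, a deubiquitinase, rose by 0.49 ± 0.06, and the zinc finger genes Zfp691 and Zfp599 by 0.48 ± 0.06 and 0.46 ± 0.09. Usp25 ran from 0.18 in PGC-1a3 to 0.76 in PGC-1a4. Zfp691 was 0.81 and 0.87 in PGC-1a1 and PGC-1a4 but 0.16 and 0.10 in PGC-1a2 and PGC-1a3. Alone in the limma fit, PGC-1a3 did not pass for Usp25 (adjusted p = 0.15), nor PGC-1a2 and PGC-1a3 for Zfp691 (adjusted p = 0.23 and 0.47). Zfp599 did not pass without GFP replicate 2 (adjusted p = 0.073).

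Among the leading falls, several encode secreted or matrix proteins. Gpx3, the secreted glutathione peroxidase, lay at 8.01, 8.03 and 8.08 log2 in GFP and at 6.45, 7.25 and 7.53 (lowest, median, highest) in the isoforms, with no overlap. It fell by 0.88 ± 0.08 log2 (adjusted p = 0.00011), most in PGC-1a2 at -1.35. Mamdc2, a proteoglycan, fell by 0.82 ± 0.06 (adjusted p = 3.8e-05), with -1.60 in PGC-1a4 and -0.48 to -0.68 in the other isoforms. Lgals4, a galectin, fell by 0.98 ± 0.11, from -0.49 in PGC-1a3 to -1.46 in PGC-1a4. Cd109, a membrane-anchored inhibitor of TGF-beta signalling, fell by 0.54 ± 0.07.

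Other leading falls encode regulators of signalling and transcription. Grb10, an adaptor that dampens insulin and IGF receptor signalling, had signals of 7.06, 6.98 and 7.06 log2 in GFP and 6.09, 6.40 and 6.63 in the isoforms. It fell by 0.61 ± 0.07 (adjusted p = 0.0011), from -0.45 in PGC-1a1 to -0.80 in PGC-1a3. Ddc, which encodes DOPA decarboxylase and lies next to Grb10, was also among the common falls; it was singled out after its values were seen. Frmd5, a FERM domain protein, fell by 0.87 ± 0.11, with -0.64 to -1.14 in the 4 isoforms. Nrk, a Nik-related kinase, fell by 0.86 ± 0.12, Runx1t1, a corepressor, by 0.55 ± 0.08, and Tspan13, a tetraspanin, by 0.62 ± 0.05 (adjusted p = 3.8e-05).

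The other leading falls include membrane transporters and a channel. Atp13a4 and Atp13a5, neighbouring genes for P-type transport ATPases, fell by 1.32 ± 0.09 and 0.63 ± 0.07 log2. The order of the isoforms differed between them: Atp13a4 was lowest in PGC-1a4 (-2.86) and nearest to GFP in PGC-1a2 (-0.32), and Atp13a5 was lowest in PGC-1a3 (-1.01) and nearest to GFP in PGC-1a4 (-0.38). Upk1b, a uroplakin of the bladder lining, had the largest mean fall of the 40 leading genes, 1.37 ± 0.13 log2 or 2.58-fold, made up of -2.53 in PGC-1a4, -2.06 in PGC-1a1, -0.57 in PGC-1a2 and -0.31 in PGC-1a3. Scn3a, a sodium channel, changed by -0.59 ± 0.10, and the keratin-associated Krtap4-2 by -0.61 ± 0.13, but both lay below the lower quartile of every array and are not shown to be above background. Krtap21-1 (-0.59 ± 0.14), Mrps36 (-0.46 ± 0.10), a small mitochondrial protein, and Psat1 (-0.56 ± 0.11), of serine synthesis, lost their calls without GFP replicate 2 (adjusted p = 0.14, 0.12 and 0.053), as did Krtap4-2 (adjusted p = 0.11). Scn3a lost its call without GFP replicate 3 (adjusted p = 0.052). Of the 40 leading genes, 34 kept their calls without GFP replicate 2, and 33 kept them whichever GFP array was left out.

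**Figure D2:**
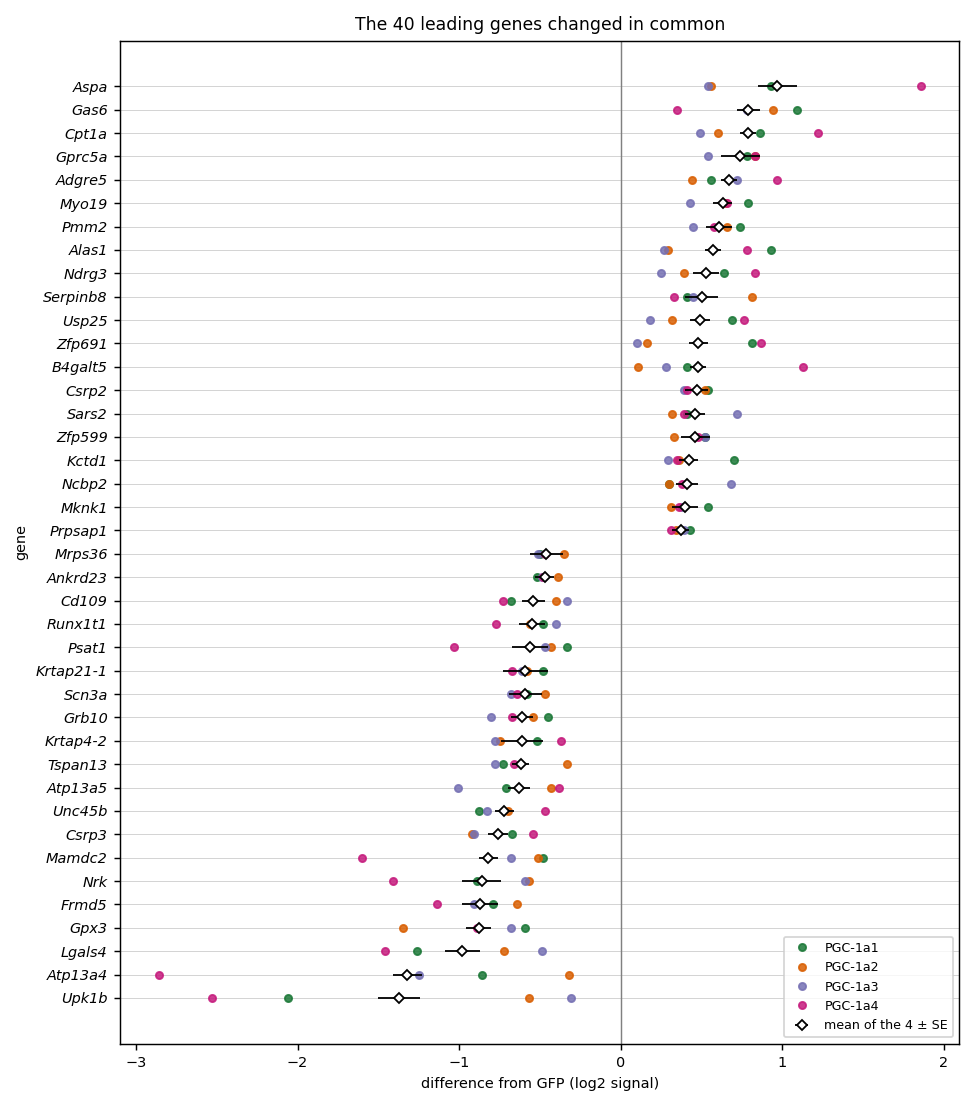
Difference from GFP in log2 signal for the 40 leading genes, ordered by the mean of the 4 isoforms (white diamonds with their SE). Coloured points are the isoforms' own differences, which share the 3 GFP arrays. Every point of a gene lies on the same side of 0, as the choice of genes required, but Atp13a4, Upk1b and Aspa spread widely while Ankrd23, Prpsap1 and Csrp2 do not.

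A change common in direction was mostly not common in size. In a limma F-test among the 4 isoform groups, in which the GFP means play no part, 373 of the 502 clusters differed between isoforms (74.3%), against 31.3% of all clusters. The share over all includes dim clusters, and the reason for the gap was not tested. When only the 12496 clusters above the median of all values on at least 3 arrays were fitted, 7624 of them differed. Of the clusters that rose in common, PGC-1a2 was the isoform nearest to GFP in 102, PGC-1a3 in 74, PGC-1a4 in 52 and PGC-1a1 in 43. PGC-1a4 was the farthest in 85, PGC-1a1 in 77, PGC-1a3 in 63 and PGC-1a2 in 46. Of those that fell, PGC-1a4 was the farthest in 93, PGC-1a3 in 52, PGC-1a2 in 48 and PGC-1a1 in 38. The 6 common genes with the lowest p in this test were Elovl7, Atp1b1, Ppargc1a, Cluh, Atp13a4 and Lgr5. Elovl7, a fatty acid elongase, had differences of 3.90 in PGC-1a1 and 2.34 in PGC-1a4 but 0.69 and 0.21 in PGC-1a3 and PGC-1a2. Atp1b1, a subunit of the sodium pump, had 1.36 and 1.17 in PGC-1a1 and PGC-1a4 against 0.10 and 0.01 in PGC-1a3 and PGC-1a2. Cluh, which binds mRNAs of mitochondrial proteins, was 0.95 and 0.86 above GFP in PGC-1a1 and PGC-1a4, and 0.05 and 0.11 in PGC-1a3 and PGC-1a2. Lgr5, a Wnt pathway receptor, was highest in PGC-1a2 (2.04) and 0.02 above GFP in PGC-1a4. The common direction of these genes in the weakest isoform thus rests on small differences.

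The 6 genes whose isoforms were closest together relative to their change were Ap1g1, Ankrd23, Zhx2, Prpsap1, Csrp2 and Krtap21-1. Ap1g1, a subunit of the clathrin adaptor of the Golgi, lay at 9.50, 9.37 and 9.51 log2 in GFP and at 9.65, 9.70 and 9.78 (lowest, median, highest) in the isoforms. It rose by 0.25 ± 0.05 (adjusted p = 0.016), with 0.24, 0.24, 0.26 and 0.24 in the 4 isoforms in order, but did not pass without GFP replicate 2 (adjusted p = 0.067). Zhx2, a transcriptional repressor, changed by -0.26 ± 0.06 with isoform differences of -0.23 to -0.30, and did not pass without GFP replicate 1 or 3 (adjusted p = 0.14 and 0.22). A high p in the F-test does not show that isoforms act alike.

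**Figure D3:**
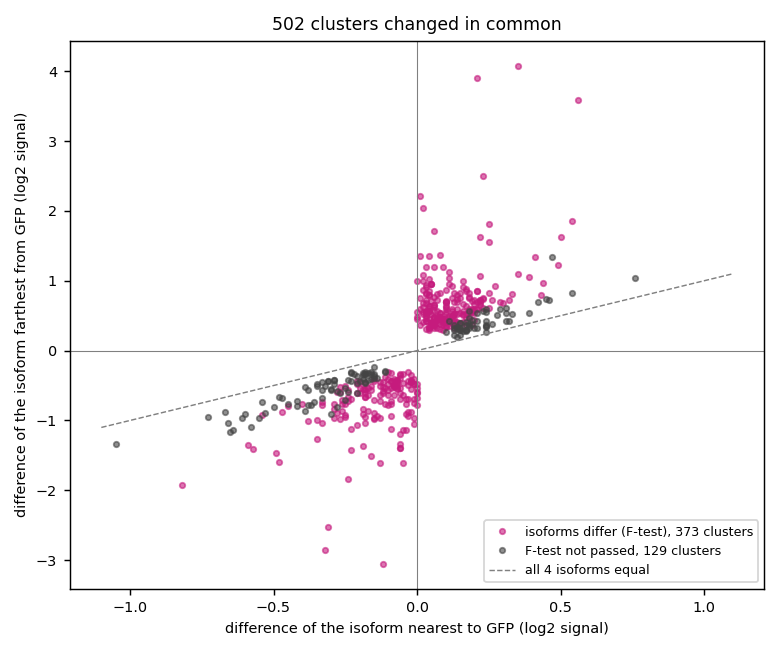
For each of the 502 clusters changed in common, the difference from GFP of the isoform nearest to GFP (horizontal) and of the isoform farthest from it (vertical), in log2 signal. Points on the dashed line would have 4 equal isoforms. Most points lie close to the vertical axis, with a median nearest difference of 0.15 log2 in size, and 373 differ between isoforms in the F-test.

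The known programme of PGC-1a was compared next, through 35 gene lists with 825 measured genes. Of these genes 100 passed in the mean contrast (12.1%), 49 higher and 51 lower, and 20 and 31 of them in common. The lists hold well-expressed genes, and of all clusters with 1 symbol 4.53% passed, while of those that also had a mean signal above the median 7.18% did (4.51% higher, 2.67% lower). For the lists, which were chosen with earlier results known, only counts and medians are given. Fewer list genes passed when a GFP array was left out: without GFP replicate 1, 2 or 3, 50, 63 and 40 list genes were called. After median centring of the arrays, 38 list genes were called higher and 22 lower, so the falls among list genes depend more on this setting. Of the 52 genes named beyond the 40 leading ones, 18 kept their calls whichever GFP array was left out. These were Elovl7, Atp1b1, Ppargc1a, Cluh, Lgr5, Nqo1, Srxn1, Hspb3, Dnajb4, Vldlr, Gadd45a, Pmaip1, Ccnd2, Rrm1, Tnni2, Casq1, Erbb3 and Mrpl34. The other 34 lost theirs without at least 1 of the GFP arrays. The integrated stress response was the single list with a median below GFP in every isoform, and the PGC-1 family list, which holds the introduced gene, the single one above.

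Genes of the mitochondrial respiratory chain and of fuel oxidation did not rise as groups in all isoforms. In the respiratory chain, 3 of 45 measured genes passed, all higher, and 2 of them in common: Cox6a1 (0.20 ± 0.04 log2) and Uqcrc1 (0.20 ± 0.04). The PGC-1a2 mean of Cox6a1 was level with GFP after rounding (11.13 log2 in both), and Uqcrc1 was 0.05 above GFP in PGC-1a3. The list's median was 0.30 in PGC-1a1, 0.08 in PGC-1a4, -0.06 in PGC-1a3 and -0.18 in PGC-1a2. In the TCA cycle 3 of 21 passed, 1 of them in common, the citrate synthase gene Cs (0.24 ± 0.05, with 0.55 in PGC-1a1 and 0.03 in PGC-1a2), and the medians were 0.46, -0.15, -0.04 and 0.19 from PGC-1a1 to PGC-1a4. Fatty acid oxidation had 4 of 20, all higher, with Cpt1a and Hadha (0.19 ± 0.05) in common and medians of 0.31, -0.19, -0.16 and 0.32. Pyruvate dehydrogenase had 2 of 9 higher and 0 in common. Of the mitochondrial ribosome, 7 of 54 passed, all higher, and Mrpl34 (0.44 ± 0.05) and Mrpl45 (0.37 ± 0.08) were common. Hadha, Mrpl34 and Mrpl45 were only 0.07, 0.05 and 0.07 above GFP in PGC-1a2. Without GFP replicate 1, 2 or 3, fatty acid oxidation had 2, 1 and 1 calls, the respiratory chain 3, 0 and 0, the TCA cycle 3, 1 and 1, and the mitochondrial ribosome 5, 4 and 3. Without GFP replicate 2, Cox6a1, Uqcrc1, Cs, Hadha and Mrpl45 did not pass (adjusted p = 0.053, 0.099, 0.053, 0.14 and 0.083).

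The other metabolic lists had few common members. In mitochondrial dynamics and genome 1 of 25 passed and 0 in common, in the peroxisome 3 of 20 higher and 0 in common, and in glucose uptake and glycolysis 2 of 19 higher and 0 in common. In branched-chain amino acid breakdown 1 of 22 passed, Bcat1 (-0.42 ± 0.09), with -1.19 in PGC-1a4 and -0.06 in PGC-1a2 and adjusted p = 0.07 without GFP replicate 2. In cholesterol and fatty acid synthesis 2 of 28 were higher and 1 lower, and the elongase Elovl6 (0.66 ± 0.13) was common, from 1.35 in PGC-1a1 to 0.04 in PGC-1a2, with adjusted p = 0.08 without GFP replicate 2. In the PGC-1 family and its partners 2 of 16 were higher, and Ppargc1a itself was the common one.

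Members of the stress lists that passed were mostly lower. In the integrated stress response, the programme by which cells raise amino acid synthesis and chaperones under stress through ATF4, 0 of 27 measured genes rose and 8 fell, 6 of them in common. The list's median was -0.21 log2, with -0.12, -0.23, -0.14 and -0.38 from PGC-1a1 to PGC-1a4. Fgf21, a stress hormone that muscle can secrete, lay at 8.87, 8.73 and 8.95 log2 in GFP and at 7.04, 8.22 and 8.96 in the isoforms. The highest isoform array overlapped with GFP, and the fall of 0.73 ± 0.15 held -1.61 in PGC-1a2 and -0.05 in PGC-1a1. Trib3, a pseudokinase induced by ATF4, fell by 0.64 ± 0.12, most in PGC-1a4 (-1.36), Vldlr, a lipoprotein receptor, by 0.69 ± 0.11, most in PGC-1a3 (-1.14), and Psat1 by 0.56 ± 0.11, from -0.33 in PGC-1a1 to -1.03 in PGC-1a4. Vldlr was at -0.05 in PGC-1a1. Without GFP replicate 1, 2 or 3 the list's median was -0.22, -0.21 and -0.19, and 2, 5 and 2 members passed. Fgf21 and Trib3 did not pass without GFP replicate 1 (adjusted p = 0.073 and 0.07) or 3 (adjusted p = 0.11 and 0.086).

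Of the heat shock list, 0 of 19 rose and 7 fell, 3 of them in common, with a median of -0.18 log2. The common members were Hspb3 (-0.44 ± 0.07) and Hspb7 (-0.26 ± 0.05), small heat shock proteins of muscle, and Dnajb4 (-0.28 ± 0.04), a J-domain cochaperone. Leaving out any 1 GFP array gave 4 calls in place of 7, with a median of -0.21 without GFP replicate 1 and -0.12 without 2 or 3. Hspb7, at -0.07 in PGC-1a4, did not pass without GFP replicate 2 (adjusted p = 0.096). Neither Hspb7 nor Dnajb4 passed after median centring. Of NRF2 targets, 0 of 18 rose and 4 fell, with Nqo1 (-1.23 ± 0.16) and Srxn1 (-0.47 ± 0.08) in common. Nqo1, a quinone reductase, was -3.05 in PGC-1a4 and -1.58 in PGC-1a1 but -0.16 and -0.12 in PGC-1a2 and PGC-1a3. Srxn1 was -1.33 in PGC-1a4 and -0.06 in PGC-1a2. Antioxidant enzymes had 2 of 20 higher and 1 lower, Gpx3. Of p53 targets, 1 of 24 rose and 3 fell. The growth arrest gene Gadd45a fell by 0.62 ± 0.08 and the proapoptotic gene Pmaip1 by 0.43 ± 0.07, while Gadd45b rose by 0.40 ± 0.08. In PGC-1a2 Gadd45a was at -0.04.

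Genes of contraction and excitation that passed were all lower. In the sarcomere list 0 of 28 rose and 5 fell, 3 of them in common: the fast troponin Tnni2 (-0.31 ± 0.05), the fast myosin-binding protein Mybpc2 (-0.30 ± 0.06) and the Z-disc protein Myoz2 (-0.25 ± 0.05). Tnni2 lay at 10.12, 10.12 and 10.18 log2 in GFP and at 9.66, 9.85 and 10.01 in the isoforms, with no overlap. Mybpc2 was nearest to GFP in PGC-1a3 (-0.06) and Myoz2 in PGC-1a2 (-0.09). In calcium handling 0 of 20 rose and 5 fell, with Casq1, the calcium store protein, at -0.52 ± 0.08, Cacna1s, the voltage sensor, at -0.36 ± 0.07 and Ryr1, the release channel, at -0.29 ± 0.06 in common. These 3 were lowest in PGC-1a1 or PGC-1a3 and lay within 0.05 log2 of GFP in PGC-1a4. Without GFP replicate 1, 2 or 3, the sarcomere list had 1, 2 and 1 calls and calcium handling 1, 3 and 1. Cacna1s did not pass without GFP replicate 1 or 3 (adjusted p = 0.058 and 0.067), nor did Ryr1 (adjusted p = 0.057 and 0.098) or Myoz2 (adjusted p = 0.12 and 0.14). Of the neuromuscular junction, 3 of 19 fell, with Erbb3 (-0.60 ± 0.08) and Erbb2 (-0.31 ± 0.06), receptors of the neuregulin system, in common. Both were nearest to GFP in PGC-1a2, Erbb3 at -0.26 and Erbb2 at -0.03. Of myogenic factors, 3 of 24 fell, with Myog (-0.35 ± 0.08) and Tead4 (-0.19 ± 0.05) in common, and neither passed without GFP replicate 2 (adjusted p = 0.091 and 0.092), nor did Mybpc2 (adjusted p = 0.069). After median centring of the arrays, Cacna1s, Ryr1, Mybpc2, Myoz2, Erbb2, Myog and Tead4 did not pass. Tnni2, Casq1 and Erbb3 kept their calls under that setting.

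The cell cycle list had isoforms on opposite sides of GFP, and the splicing and growth lists had few calls. In the cell cycle 4 of 38 rose and 1 fell, and the list had medians of 0.26 (PGC-1a2) and 0.23 (PGC-1a3) but -0.34 in PGC-1a4 and -0.13 in PGC-1a1. Common members were Rrm1 (0.33 ± 0.05), of nucleotide synthesis, Ccne1 (0.27 ± 0.07) and Ccnd2 (-0.35 ± 0.05), cyclins of the G1 phase. In the isoform nearest to GFP, Rrm1 was at 0.16 (PGC-1a4), Ccne1 at 0.02 (PGC-1a2) and Ccnd2 at -0.03 (PGC-1a4). Of splicing regulators 3 of 34 rose, all in common: Celf1 (0.23 ± 0.04), Khdrbs1 (0.22 ± 0.04) and Srsf5 (0.33 ± 0.08). Each was nearest to GFP in PGC-1a1 (0.03, 0.05 and 0.10). Srsf5 and Ccne1 did not pass without GFP replicate 2 (adjusted p = 0.17 and 0.16). Without GFP replicate 1, 2 or 3 the cell cycle list had 2, 3 and 2 calls and splicing regulators 1, 2 and 0. In the myostatin, activin and SMAD list 2 of 25 fell, with Ltbp1 (-0.23 ± 0.05), a TGF-beta binding protein, in common. The PGC-1a4 mean of Ltbp1 was level with GFP after rounding (8.71 log2 in both). In the IGF list 1 of 18 rose and 1 fell, and in the FoxO, atrophy and autophagy list 0 of 24 passed.

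Markers of innate response to the virus did not separate the isoforms from GFP as a group. Of 29 interferon-induced genes measured, 1 passed, the antiviral gene Rsad2 (0.39 ± 0.08 log2), with signals of 6.85, 6.92 and 7.16 in GFP and 6.91, 7.34 and 7.85 in the isoforms, which overlap. Rsad2 was 0.73 above GFP in PGC-1a3 and 0.03 in PGC-1a4. The list's median was 0.00. Of NF-kB and inflammatory genes 2 of 28 rose, Vcam1 (0.43 ± 0.09) and the NF-kB inhibitor Nfkbia (0.39 ± 0.08), and 1 fell. Rsad2, Vcam1 and Nfkbia did not pass without GFP replicate 2 (adjusted p = 0.086, 0.088 and 0.091). In the TNF superfamily 1 of 21 rose and 1 fell, the ectodysplasin receptor Eda2r (-0.24 ± 0.05) in common.

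The remaining lists held single common genes. Among secreted factors 2 of 24 rose and 2 fell (0, 3 and 1 calls without GFP replicate 1, 2 or 3), with the peptide hormone Apln (0.57 ± 0.11) rising and Fgf21 falling in common. Among angiogenic factors 2 of 17 rose, and among matrix genes 1 of 42 rose and 2 fell (0, 2 and 0 calls likewise), with Thbs2, a thrombospondin, common to both lists (0.32 ± 0.08). Apln and Thbs2 did not pass without GFP replicate 2 (adjusted p = 0.071 and 0.18). Of nuclear receptors 1 of 27 rose and 1 fell, Pparg (-0.34 ± 0.06), of the circadian clock 1 of 14 fell, Nfil3 (-0.36 ± 0.07), and of immediate early genes 2 of 27 fell, Jund (-0.29 ± 0.05) in common, with adjusted p = 0.054 without GFP replicate 2. Of lysosomal genes 1 of 28 rose and 0 in common.

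**Figure D4:**
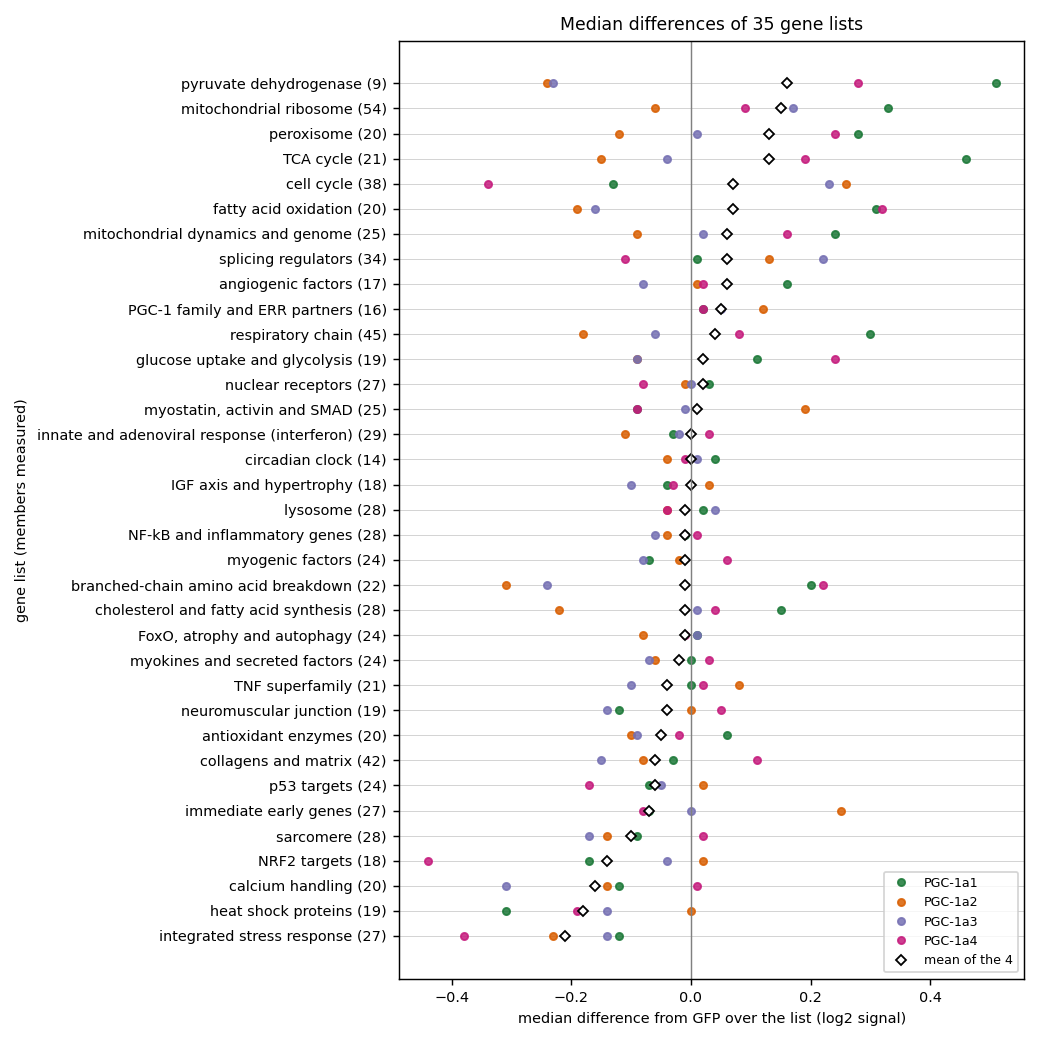
Median difference from GFP, in log2 signal, over the measured members of each of 35 gene lists (number in brackets), for each isoform (coloured points) and for the mean of the 4 (white diamonds). The isoforms straddle 0 for most metabolic lists, and all lie below 0 for the integrated stress response (median of the mean -0.21). No test was run on the lists.

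In the mean contrast 0 of 6 endothelial, 0 of 5 macrophage, 0 of 3 Schwann cell and 0 of 5 pericyte and smooth muscle markers passed. Of 8 fibroblast markers Tcf7l2 rose (0.31), of 6 adipocyte markers Pparg fell, and of 7 myoblast markers Vcam1 rose. Below the lower quartile of every array lay 2 of 8 fibroblast markers (Lum, Fap), 2 of 6 endothelial (Kdr, Emcn), 2 of 6 adipocyte (Fabp4, Lep) and 2 of 5 macrophage markers (Ptprc, Adgre1). The other markers of these lists lay higher, with GFP means of up to 7.30 log2 for Tcf7l2, 6.31 for Col1a2, 6.20 for Plin1 and 5.79 for Cd68. The summed fibroblast signal was 349 to 428 in GFP and 367 to 452 in the isoforms. The summed macrophage signal was 113 to 126 in GFP, 144 to 157 in PGC-1a3, where every array was above GFP, and 101 to 111 in PGC-1a4, where every array was below. The part of these markers in the results was not tested.

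**Figure D5:**
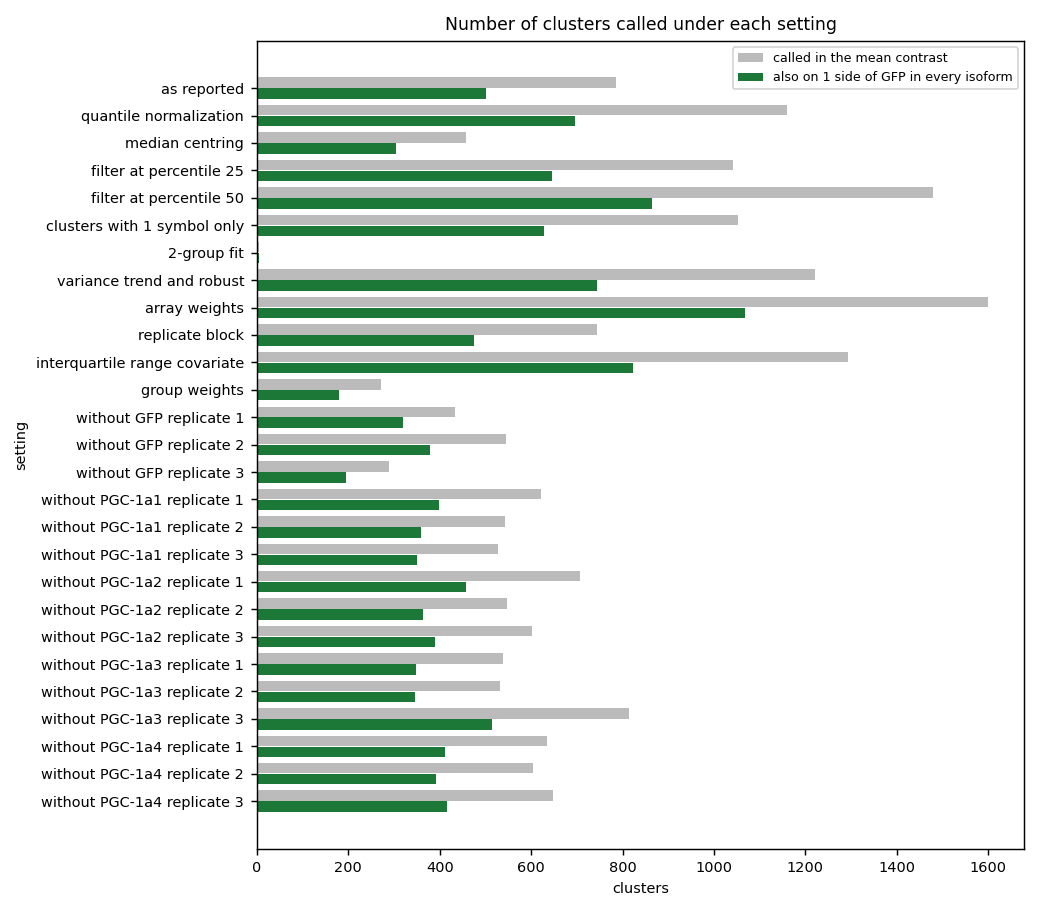
Number of clusters called in the mean contrast (grey) and of those on 1 side of GFP in every isoform (green) under each setting. As reported the numbers are 785 and 502. The single-group fit (labelled 2-group fit) gave 4 and 4, and leaving out a GFP array gave 290 to 545 called clusters.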

How the data were processed

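RNA from 15 myotube samples in 5 groups of 3 was hybridised to single-colour arrays. The authors deposited log2 signals per transcript cluster. Partek is named, without a version, in the submitters' processing notes, with no word on background correction, normalization or summarization, which stay unknown. Gene symbols came from GEO's platform annotation: 14996 of 23332 clusters had 1 symbol, 1019 several and 7317 none. Genes were named only from clusters with 1 symbol.

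The deposited values were fitted as 5 groups in limma 3.58.1 (R 4.3.3, lmFit and eBayes), with the contrast mean of the 4 isoforms minus GFP. P-values were two-sided and adjusted by Benjamini-Hochberg over all clusters, and 0.05 was the threshold. The script was tested on simulated data. No filter on dim clusters was used, and detection calls are not used here. For list genes with several clusters, the brightest was taken. The number of arrays limits the precision.

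The members and gene lists were chosen with earlier results of these data known. Among common clusters without overlap between isoform and GFP arrays, the genes named were the 15 rises and 15 falls with the largest difference in the isoform nearest to GFP and the next 5 of each by mean. Uncharacterised loci, olfactory, vomeronasal and taste receptors and small RNAs were passed over. To these were added up to 4 members per list, and the 6 genes most and 6 least different among isoforms. Alternatives were other normalizations, filters on dim clusters, variance models, weights, a replicate block and leaving out arrays or isoforms. Replicate numbers did not pair the arrays: of 30 same-number pairs, 11 had deviations correlated above 0.1, with a range of -0.22 to 0.36.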

Additional observations from a re-analysis of the deposited data

Results flagged for a closer look

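The 4 isoforms differed from each other in 74 of the 92 named genes, by a limma F-test among the isoform groups with adjustment over all clusters. The value after each gene is the adjusted p of that test. Groups of 3 arrays, and the 12 isoform arrays together, were not tested for an outlying array.

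Among the leading genes that rose, the isoforms differed in Aspa (1e-04), Cpt1a (1.5e-05), Adgre5 (0.00011), Myo19 (0.011), Gas6 (0.00012) and Serpinb8 (0.04). The next were Sars2 (0.004), Ncbp2 (0.018), Kctd1 (0.0027), Alas1 (8.3e-06), Ndrg3 (0.0018) and Usp25 (8.5e-05). Further genes were Zfp691 (5.6e-06) and B4galt5 (9.8e-07).

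Among the leading genes that fell, they differed in Gpx3 (0.00025), Nrk (0.0021), Csrp3 (0.0038), Lgals4 (0.00041), Mamdc2 (1.6e-06) and Unc45b (0.0024). The next were Grb10 (0.046), Runx1t1 (0.041), Atp13a5 (0.00068), Upk1b (2.1e-06), Atp13a4 (1.9e-07) and Tspan13 (0.00028). Further genes were Psat1 (0.0053) and Cd109 (0.0069).

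The genes chosen for this difference were Elovl7 (5.5e-08), Atp1b1 (5.6e-08), Ppargc1a (6.4e-08), Cluh (1.6e-07) and Lgr5 (3.1e-07).

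Among genes named from the lists, the isoforms differed in Cox6a1 (0.00028), Uqcrc1 (0.00067), Cs (7.4e-05), Hadha (0.0026), Bcat1 (2.9e-05) and Elovl6 (0.00032). The next were Nqo1 (1.1e-06), Srxn1 (4.5e-06), Hspb3 (0.0095), Hspb7 (0.006), Vldlr (0.00025) and Trib3 (0.00042). Further genes were Fgf21 (0.00024), Gadd45a (1e-04), Pmaip1 (0.017), Ccnd2 (4.2e-05), Rrm1 (0.00037) and Ccne1 (0.00081). They also differed in Celf1 (0.00062), Khdrbs1 (0.0037), Srsf5 (0.028), Ltbp1 (0.00029), Tnni2 (0.047) and Mybpc2 (0.0037). Other genes were Myoz2 (0.013), Casq1 (6e-05), Cacna1s (0.00016), Ryr1 (0.00014), Erbb3 (0.0013) and Erbb2 (0.002). To these came Tead4 (0.03), Thbs2 (0.016), Apln (0.029), Rsad2 (0.00074), Vcam1 (0.0011) and Nfkbia (0.0011). Also past the threshold were Pparg (0.00089), Nfil3 (0.037), Mrpl34 (7.1e-06), Mrpl45 (0.00091) and Jund (0.0021).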

How the results depend on the processing

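No named gene changed direction under the alternatives that tested the mean of all 4 isoforms. Ppargc1a and 49 further genes of the 92 passed under every one of these other than the fit with all isoform arrays as 1 group. That fit left 4 clusters called, 4 of them in common, and Ppargc1a at 1.70 log2 with adjusted p = 0.79, because differences between isoforms enter its error. Against 785 called and 502 in common, median centring gave 457 and 304, a filter at percentile 50 gave 1479 and 864, array weights 1599 and 1067, the interquartile range of each array as covariate 1293 and 823, and weights per group, chosen after seeing the data, 271 and 180. A variance trend with robust estimation gave 1220 called. Quantile normalization called 1160, of which 53.2% were higher. With array weights 45.5% of the calls were higher and with the covariate 43.6%, against 58.9% as reported. The cause of these moves was not tested. When 1 isoform was left out, common asked for the same side in the other 3 only, a looser rule than for the 502. Without PGC-1a1, 660 were called and 483 in common, and without PGC-1a2, 1470 and 1139. Without PGC-1a3 the numbers were 1026 and 669, and without PGC-1a4, 985 and 795. Asking that no arrays overlap left 203, and a nearest isoform at least 0.5 log2 from GFP left 20. List genes called numbered 100, against 60 with median centring, 157 with array weights and 36 with weights per group. Leaving out 1 array at a time gave 290 to 814 called, 195 to 514 in common, 40 to 98 list genes and 6389 to 7955 clusters that differed among isoforms. The lowest counts of calls came without GFP replicate 3. With the replicate number as a block, 744 clusters were called and 476 in common, and 5 named genes lost their call. By deviations from the group means, and among arrays of other groups only, 6 of the 15 arrays were closest to an array of the same number. Clusters below the lower quartile of every array, 14 of the 502, are near the limit of what the arrays measure.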
